A study of Homo sapiens with 8 samples.

Results

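Messenger RNA of 34 genes that act in mitosis and at the G2/M transition was followed in 8 RNA-seq libraries of the human prostate cancer cell lines PC3 and DU145. The members were chosen by name, from a list of cyclins, mitotic kinases, spindle checkpoint, kinetochore, spindle and cytokinesis genes. Earlier results of these data were known at that choice. All 34 stood in both deposited count tables, among 36779 genes in all. PC3 and DU145 cells had each been transfected with an overexpression plasmid for circ0003553, with an overexpression plasmid for circ0004592 (both circular RNAs, circRNAs) or with a negative control plasmid. Each line has 1 library per circRNA and 2 control libraries, since each circRNA has a control of its own arm. The titles name the circ0003553 arm RCAN3 and the circ0004592 arm STK3. The labels do not say whether the arms were separate cultures, so p-values measure the spread between these libraries. Total counts were 33444940 to 49926342 per library, and the lowest count of a member was 293.

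Entry into mitosis is driven by CDK1 bound to cyclin A and then to B-type cyclins, once CDC25 phosphatases have removed inhibitory phosphates from it. The Polo-like and Aurora kinases, kinesin motors and kinetochore proteins then build the spindle, and the spindle checkpoint holds back CDC20 and the ubiquitin ligase APC/C until each chromosome is attached. Most of these genes are transcribed in G2 and M phase, and the level of their RNA in a growing culture is often read as a measure of how many cells divide. In bulk RNA, fewer cells in G2 or M phase and less of the RNA in each such cell cannot be told apart.

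Levels are given as CPM (counts scaled to library total and edgeR's TMM factors). The summed level of 6 epithelial markers was 1014 to 1315 CPM in PC3 and 3358 to 4524 CPM in DU145. The 5 leukocyte markers listed in the tables summed to at most 0.617 CPM in PC3 and 1.26 CPM in DU145. The 5 listed markers of fibroblasts and endothelium summed to 27.8 to 33.3 CPM in PC3 and 2.27 to 3.32 CPM in DU145, most of it COL1A1 at 21.8 to 27.2 CPM in PC3, and their part in the differences between the lines was not tested. RCAN3, at gene level, had 43.9 CPM with circ0003553 and 33.1 and 29.4 CPM in the controls of PC3, and 37.0 CPM with circ0003553 and 20.8 and 18.2 CPM in the controls of DU145. STK3 had 19.2 CPM with circ0004592 and 7.69 and 9.10 CPM in the controls of PC3, and 34.02 CPM with circ0004592 and 28.8 and 26.1 CPM in the controls of DU145. RCAN3 rose with circ0003553 in PC3 (log2 fold change 0.49 ± 0.10, adjusted p = 0.000313) and DU145 (0.92 ± 0.09, adjusted p = 9.61e-07), and STK3 rose with circ0004592 in PC3 (1.19 ± 0.12, adjusted p = 2.73e-08), while RCAN3 fell with circ0004592 in PC3, to 23.3 CPM (-0.42 ± 0.10, adjusted p = 0.00316), and STK3 did not pass with circ0004592 in DU145 (log2 fold change 0.31 ± 0.10, adjusted p = 0.0551, edgeR). A gene count does not separate circular from linear RNA.

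Genes of this kind are known to share promoter elements, the cell cycle homology region (CHR) bound by the DREAM and MYB-MuvB complexes, and CCAAT boxes bound by NF-Y. RefSeq promoter windows (GRCh38.p14, 250 bases before to 50 bases after the annotated start) were found for 29 of the 34 members, and AURKA, BIRC5, TPX2, TTK and UBE2C had none in the table. CHR letters, taken as TTTGAA and also as TTCGAA, on either strand, stood in 22 of the 29 members (75.9%) and in 19.5% of the 27305 genes of the table. CCAAT, on either strand, stood in 23 members (79.3%) and in 39.7% of all genes, and both stood in 18 members (62.1%) and in 9.02% of all genes. A gene was counted if any of its windows held the letters. Within the 100 bases before the start, CHR letters stood in 15 members (51.7%) and in 6.48% of all genes. Only KIF2C and CENPE, 6.9% of the members, had neither motif, against 49.8% of all genes. Only TTTGAA and TTCGAA were searched, so other forms of the CHR would be missed. A match in letters is a description of the sequence and does not show binding.

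The 100 bases before the start are shown for KIF20A, KIF23, TOP2A and CCNB2, which were among the members with the largest differences between the lines, for BUB1 and KIF11, which rose in PC3 with the circRNAs, and for CENPE, which has neither motif. They lie at chr5:138179012-138179111 for KIF20A, chr15:69414249-69414348 for KIF23, chr15:59105046-59105145 for CCNB2 and chr10:92593030-92593129 for KIF11, all on the plus strand. TOP2A at chr17:40417897-40417996, BUB1 at chr2:110678064-110678163 and CENPE at chr4:103198344-103198443 are on the minus strand. Capitals mark the CCAAT and CHR letters or their reverse complements, 5′ to 3′ on the strand of the gene.
KIF20A: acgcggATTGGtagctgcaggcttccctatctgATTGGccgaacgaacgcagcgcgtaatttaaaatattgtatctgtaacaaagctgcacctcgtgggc
KIF23: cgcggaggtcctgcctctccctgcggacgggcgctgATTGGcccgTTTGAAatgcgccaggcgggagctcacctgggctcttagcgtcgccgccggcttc
TOP2A: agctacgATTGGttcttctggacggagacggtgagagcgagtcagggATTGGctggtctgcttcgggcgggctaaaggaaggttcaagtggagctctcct
CCNB2: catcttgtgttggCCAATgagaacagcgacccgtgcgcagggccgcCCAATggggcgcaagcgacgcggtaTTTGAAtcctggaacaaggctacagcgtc
BUB1: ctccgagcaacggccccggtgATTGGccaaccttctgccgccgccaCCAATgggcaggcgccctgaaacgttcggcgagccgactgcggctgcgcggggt
KIF11: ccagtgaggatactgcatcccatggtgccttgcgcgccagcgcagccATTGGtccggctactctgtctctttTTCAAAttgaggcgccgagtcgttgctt
CENPE: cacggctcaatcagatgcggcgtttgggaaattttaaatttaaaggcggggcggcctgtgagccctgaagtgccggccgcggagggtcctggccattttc
KIF23, CCNB2 and KIF11 have CHR letters and a CCAAT within these 100 bases. KIF20A and TOP2A have CCAAT there without TTTGAA or TTCGAA on either strand. The CHR letters of BUB1 lie just after the start and those of TOP2A farther upstream.

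**Figure D1:**
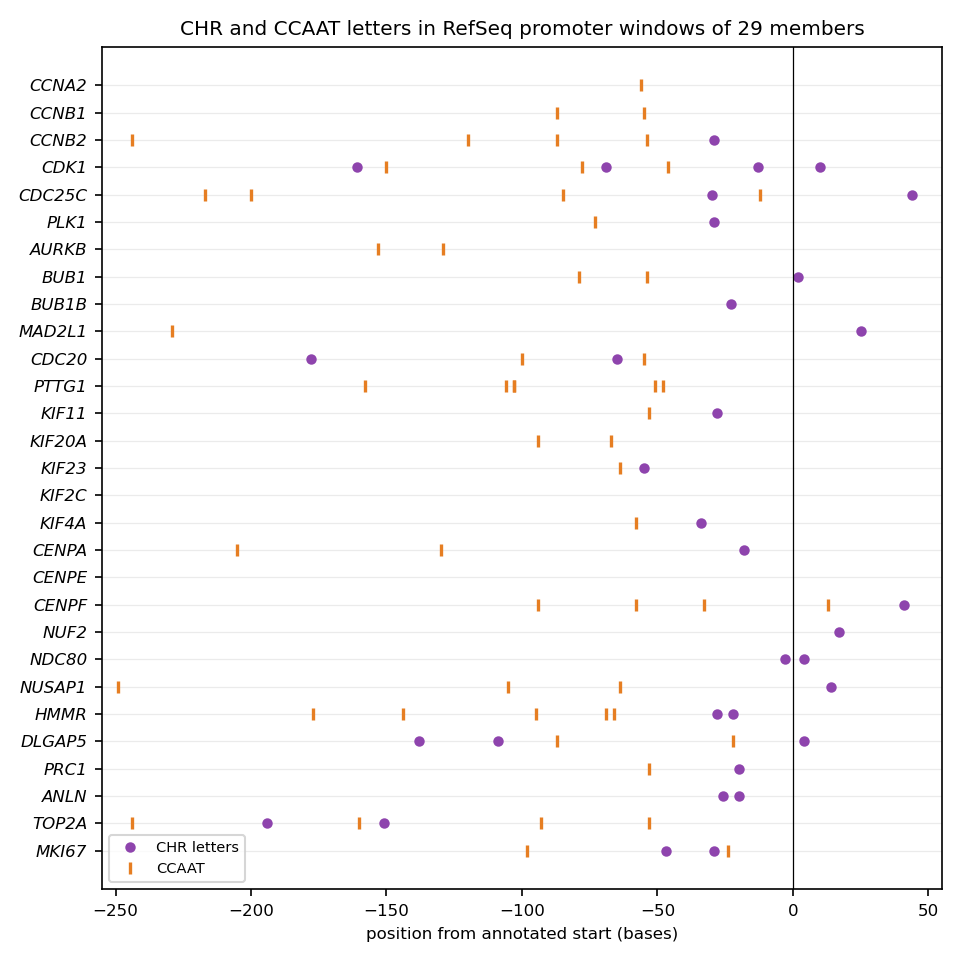
Position of CHR letters (purple dots) and CCAAT (orange ticks) from the annotated start, in bases, in the RefSeq windows of 29 members, with all windows of a gene drawn together. The letters gather in the 100 bases before the start, where 15 members have CHR letters, and KIF2C and CENPE have none.

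PC3 had less RNA of nearly all of these genes than DU145. With all 8 libraries in 4 blocks of plasmid and arm, 31 of the 34 members were lower in PC3, 0 were higher, and CDK1, KIF2C and BIRC5 did not pass the threshold of an adjusted p under 0.05 (edgeR quasi-likelihood test, Benjamini-Hochberg over 17877 genes). Of all genes tested, 76.8% passed in either direction and 38.4% were lower. The median log2 fold change of the members was -1.08, against -0.01 over all genes. In 21 members the difference was at least 2-fold, and in 27 at least 1.5-fold. The share of all genes at these folds was not counted. In 30 of 34 members all 4 PC3 libraries lay below all 4 DU145 libraries in CPM, as did 37% of all genes tested. Summed over the members, PC3 had 3296 and 3193 CPM with circ0003553 and circ0004592 and 3221 and 3191 CPM in the controls, and DU145 had 7622 and 7565 CPM with the circRNAs and 8151 and 8428 CPM in the controls.

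**Figure D2:**
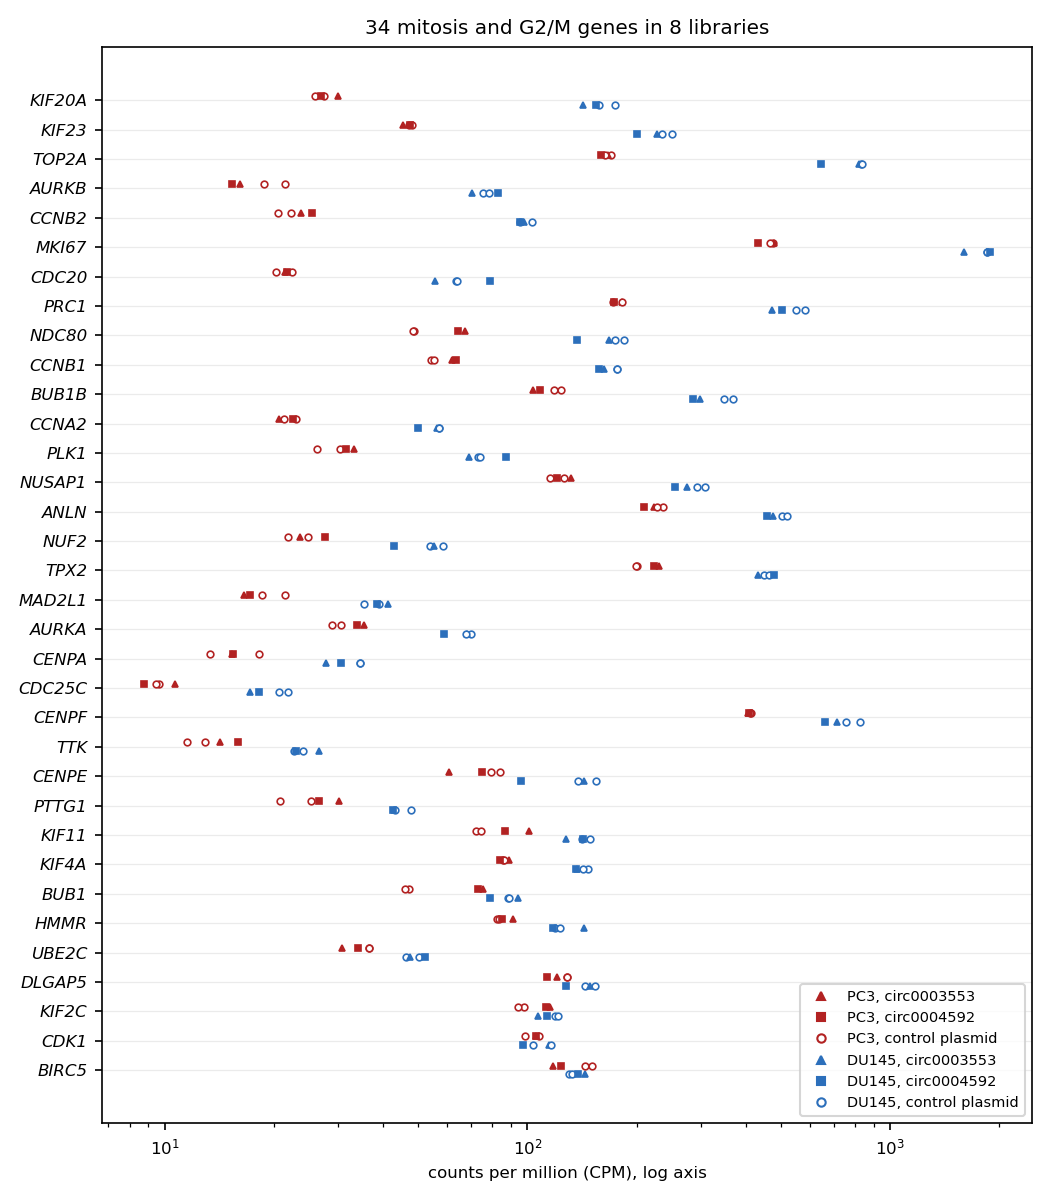
CPM (log axis) of the 34 members in each of the 8 libraries, ordered from the lowest log2 fold change between PC3 (red) and DU145 (blue) at the top; symbols give the plasmid, and open circles are controls. In all rows but those of DLGAP5, KIF2C, CDK1 and BIRC5 the red and blue points do not overlap.

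Mean levels per gene length over 4 libraries, as the deposited RPKM (reads scaled to gene length and library total), ranged from 2.98 for TTK to 59.1 for TPX2 in PC3 and from 5.27 for TTK to 139.8 for MKI67 in DU145. The median over the members was 16.5 RPKM in PC3 and 33.1 RPKM in DU145. TPX2, which targets and activates Aurora A on spindle microtubules, was first in PC3 and second in DU145, with 55.9 to 63.0 RPKM in the PC3 libraries and 123 to 129 RPKM in the DU145 libraries. MKI67, which codes for the Ki-67 protein that coats mitotic chromosomes, had 33.7 to 37.1 RPKM in PC3 and 128 to 145 RPKM in DU145.

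In what follows, CPM are given with circ0003553 before circ0004592, and the controls in the same order of arms. Of the cyclins, CDK1 and CDC25C, 4 of 5 were lower in PC3. CCNB2, a B-type cyclin, had 23.7 and 25.5 CPM with the circRNAs and 20.5 and 22.3 CPM with the control plasmid in PC3, against 97.9 and 95.3 CPM with the circRNAs and 95.1 and 103 CPM with the control plasmid in DU145. Each PC3 library lay far below each DU145 library, with a log2 fold change of -2.09 ± 0.09, adjusted p = 1.08e-06. CCNB1, the main mitotic cyclin, had 61.9 and 63.5 CPM with the circRNAs and 54.4 and 55.2 CPM with the control plasmid in PC3, against 163 and 158 CPM with the circRNAs and 177 and 177 CPM with the control plasmid in DU145. Its log2 fold change was -1.52 ± 0.10, adjusted p = 7.27e-06. CDC25C, one of the phosphatases that activate CDK1, had 10.7 and 8.78 CPM with the circRNAs and 9.65 and 9.49 CPM with the control plasmid in PC3, against 17.2 and 18.1 CPM with the circRNAs and 21.8 and 20.6 CPM with the control plasmid in DU145, and the groups did not overlap (log2 fold change -1.01 ± 0.11). CCNA2, the cyclin of S and G2 phase, had 20.7 to 23.0 CPM in PC3 and 49.9 to 57.0 CPM in DU145. CDK1 itself, the kinase that these cyclins activate, had 106 and 105 CPM with the circRNAs and 108 and 98.5 CPM with the control plasmid in PC3, against 114 and 97.4 CPM with the circRNAs and 103 and 116 CPM with the control plasmid in DU145. The lines overlapped in CDK1, and its log2 fold change was -0.05 ± 0.09, adjusted p = 0.656.

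All 3 mitotic kinases were lower in PC3. AURKB, the kinase of the chromosomal passenger complex, had 16.1 and 15.3 CPM with the circRNAs and 18.8 and 21.5 CPM with the control plasmid in PC3, against 70.5 and 82.8 CPM with the circRNAs and 75.5 and 78.2 CPM with the control plasmid in DU145. All 4 PC3 libraries lay far below those of DU145, and the log2 fold change was -2.11 ± 0.11, adjusted p = 2.57e-06. PLK1, the Polo-like kinase, had 33.2 and 31.7 CPM with the circRNAs and 26.4 and 30.4 CPM with the control plasmid in PC3, against 69.1 and 87.2 CPM with the circRNAs and 73.3 and 74.2 CPM with the control plasmid in DU145. AURKA, the Aurora kinase of centrosomes and spindle poles, had 35.4 and 33.9 CPM with the circRNAs and 28.98 and 30.7 CPM with the control plasmid in PC3, against 68.1 and 59.1 CPM with the circRNAs and 69.7 and 67.8 CPM with the control plasmid in DU145. Neither overlapped between the lines, with log2 fold changes of -1.32 ± 0.10 for PLK1 and -1.04 ± 0.10 for AURKA.

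All 4 spindle checkpoint genes were lower in PC3. BUB1B, which codes for BubR1, an inhibitor of the APC/C, had 104 and 109 CPM with the circRNAs and 118 and 124 CPM with the control plasmid in PC3, against 298 and 286 CPM with the circRNAs and 349 and 369 CPM with the control plasmid in DU145. MAD2L1, which codes for Mad2, the protein that binds CDC20 in the checkpoint complex, had 16.5 and 17.2 CPM with the circRNAs and 21.4 and 18.5 CPM with the control plasmid in PC3, against 41.4 and 38.5 CPM with the circRNAs and 35.3 and 38.9 CPM with the control plasmid in DU145. TTK, the kinase that starts checkpoint signalling at kinetochores, had 14.2 and 15.9 CPM with the circRNAs and 12.9 and 11.5 CPM with the control plasmid in PC3, against 26.6 and 23.0 CPM with the circRNAs and 22.7 and 24.1 CPM with the control plasmid in DU145. All 3 had lower values in each PC3 library than in any DU145 library, and their log2 fold changes were -1.51 ± 0.08, -1.07 ± 0.11 and -0.83 ± 0.10 in this order. BUB1, a checkpoint kinase that marks the centromere, had 75.4 and 73.1 CPM with the circRNAs and 47.1 and 45.9 CPM with the control plasmid in PC3, against 93.9 and 78.7 CPM with the circRNAs and 88.5 and 88.7 CPM with the control plasmid in DU145. Its PC3 libraries with a circRNA came close to the lowest DU145 library, and over all libraries the log2 fold change was -0.57 ± 0.16, adjusted p = 0.011. Under alternative settings, among them a fit to the controls alone, the log2 fold change of BUB1 ran from -0.94 to -0.44. Without the circRNA libraries, the mean of the BUB1 controls was 46.5 CPM in PC3 and 88.6 CPM in DU145.

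The 3 genes around the APC/C were lower in PC3 too. CDC20, its mitotic activator, had 21.4 and 21.7 CPM with the circRNAs and 22.4 and 20.2 CPM with the control plasmid in PC3, against 55.8 and 78.7 CPM with the circRNAs and 63.6 and 64.1 CPM with the control plasmid in DU145. PTTG1, which codes for securin, the inhibitor of separase, had 30.2 and 26.6 CPM with the circRNAs and 25.4 and 20.8 CPM with the control plasmid in PC3, against 42.9 and 42.6 CPM with the circRNAs and 47.6 and 43.2 CPM with the control plasmid in DU145. UBE2C, the E2 enzyme of the APC/C, had 30.7 and 34.2 CPM with the circRNAs and 36.6 and 36.6 CPM with the control plasmid in PC3, against 47.4 and 52.3 CPM with the circRNAs and 46.2 and 50.2 CPM with the control plasmid in DU145. CDC20 differed most, with a log2 fold change of -1.60 ± 0.10, adjusted p = 5.63e-06, against -0.79 ± 0.11 for PTTG1 and -0.51 ± 0.08 for UBE2C.

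Of the 5 kinesins, KIF20A and KIF23 differed most. KIF20A, which carries the passenger complex to the midzone, had 30.0 and 27.0 CPM with the circRNAs and 25.9 and 27.6 CPM with the control plasmid in PC3, against 142 and 155 CPM with the circRNAs and 158 and 174 CPM with the control plasmid in DU145. The fitted level in PC3 was 0.176 times that in DU145 (log2 fold change -2.51 ± 0.10, adjusted p = 8.07e-07), the largest difference of any member. KIF23, a subunit of centralspindlin, had 45.4 and 47.4 CPM with the circRNAs and 47.1 and 48.0 CPM with the control plasmid in PC3, against 228 and 200.3 CPM with the circRNAs and 235 and 250.4 CPM with the control plasmid in DU145, with a log2 fold change of -2.28 ± 0.09, adjusted p = 7.72e-07. KIF11, the motor that pushes spindle poles apart, had 101 and 86.7 CPM with the circRNAs and 72.3 and 74.4 CPM with the control plasmid in PC3, against 128 and 142 CPM with the circRNAs and 142 and 149 CPM with the control plasmid in DU145. The PC3 libraries of KIF11 stayed below those of DU145, and the log2 fold change was -0.76 ± 0.12. It ran from -0.99 to -0.67 under alternative settings, among them a fit to the controls alone. The mean of the KIF11 controls was 73.3 CPM in PC3 and 145 CPM in DU145. KIF4A, a chromokinesin, had 83.9 to 88.9 CPM in PC3 and 136 to 146 CPM in DU145. KIF2C, which takes microtubules apart at centromeres, had 116 and 113 CPM with the circRNAs and 97.9 and 94.0 CPM with the control plasmid in PC3, against 107 and 113 CPM with the circRNAs and 119 and 122 CPM with the control plasmid in DU145. The lines overlapped in KIF2C over all 8 libraries (log2 fold change -0.14 ± 0.10, adjusted p = 0.255), while the 4 controls alone gave -0.34 with an adjusted p of 2.54e-06.

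Each of the 5 centromere and kinetochore genes was lower in PC3. NDC80 and NUF2 code for partner subunits of the complex that holds microtubule ends at the kinetochore. NDC80 had 67.1 and 64.2 CPM with the circRNAs and 48.6 and 48.4 CPM with the control plasmid in PC3, against 168 and 137 CPM with the circRNAs and 175 and 185 CPM with the control plasmid in DU145. NUF2 had 23.6 and 27.6 CPM with the circRNAs and 21.9 and 24.9 CPM with the control plasmid in PC3, against 55.3 and 43.0 CPM with the circRNAs and 53.8 and 58.6 CPM with the control plasmid in DU145. The log2 fold changes were -1.55 ± 0.15 for NDC80 and -1.10 ± 0.12 for NUF2, with no overlap between the lines. That of NDC80 ran from -1.90 to -1.42 under alternative settings, among them a fit to the controls alone. The mean of the NDC80 controls was 48.5 CPM in PC3 and 180 CPM in DU145. CENPF, a large kinetochore protein, had 405 and 407 CPM with the circRNAs and 414 and 411 CPM with the control plasmid in PC3, against 715 and 661 CPM with the circRNAs and 755 and 826 CPM with the control plasmid in DU145. CENPE, the kinetochore motor that moves chromosomes to the spindle equator, had 60.6 and 75.2 CPM with the circRNAs and 83.8 and 79.1 CPM with the control plasmid in PC3, against 143 and 96.1 CPM with the circRNAs and 138 and 154 CPM with the control plasmid in DU145. CENPA, the histone H3 variant of centromeres, had 13.3 to 18.2 CPM in PC3 and 27.8 to 34.6 CPM in DU145. Their log2 fold changes of -0.85 ± 0.08, -0.82 ± 0.14 and -1.04 ± 0.10 were smaller than that of NDC80.

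Of the spindle assembly and midzone genes, all 5 passed. PRC1, which cross-links the microtubules of the midzone, had 183 and 173 CPM with the circRNAs and 173 and 182 CPM with the control plasmid in PC3, against 473 and 504 CPM with the circRNAs and 551 and 583 CPM with the control plasmid in DU145. NUSAP1, which bundles spindle microtubules, had 132 and 121 CPM with the circRNAs and 126 and 116 CPM with the control plasmid in PC3, against 276 and 255 CPM with the circRNAs and 293 and 308 CPM with the control plasmid in DU145. PRC1 had a log2 fold change of -1.57 ± 0.09, adjusted p = 3.63e-06, and NUSAP1 one of -1.19 ± 0.09. HMMR, a microtubule-associated protein of spindle poles, had 91.3 and 85.0 CPM with the circRNAs and 82.2 and 83.7 CPM with the control plasmid in PC3, against 143 and 117 CPM with the circRNAs and 119 and 123 CPM with the control plasmid in DU145. TPX2 had 199 to 231 CPM in PC3 and 432 to 479 CPM in DU145. DLGAP5, which stabilises kinetochore fibres, had 121 and 113 CPM with the circRNAs and 129 and 128 CPM with the control plasmid in PC3, against 149 and 128 CPM with the circRNAs and 144 and 154 CPM with the control plasmid in DU145. Its PC3 and DU145 libraries overlapped, and its call (log2 fold change -0.22 ± 0.08, adjusted p = 0.0277) was lost without the filter on low counts and without any 1 of the 4 controls or DU145 with circ0003553, where adjusted p was 0.0505 to 0.124.

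In the last group, 3 of 4 members were lower in PC3. TOP2A, the topoisomerase that untangles sister chromatids, had 167 and 159 CPM with the circRNAs and 169.6 and 164 CPM with the control plasmid in PC3, against 822 and 644 CPM with the circRNAs and 833 and 834 CPM with the control plasmid in DU145, and its log2 fold change was -2.24 ± 0.09, adjusted p = 9.19e-07. MKI67 had 478 and 433 CPM with the circRNAs and 474 and 466 CPM with the control plasmid in PC3, against 1595 and 1881 CPM with the circRNAs and 1848 and 1843 CPM with the control plasmid in DU145, with a log2 fold change of -1.95 ± 0.09, adjusted p = 1.65e-06. ANLN, which codes for anillin of the cleavage furrow, had 210.2 to 236 CPM in PC3 and 458 to 519 CPM in DU145. BIRC5, which codes for survivin of the passenger complex, had 118 and 124 CPM with the circRNAs and 145 and 151 CPM with the control plasmid in PC3, against 144 and 138 CPM with the circRNAs and 130.2 and 133 CPM with the control plasmid in DU145. It did not pass over all 8 libraries (log2 fold change -0.03 ± 0.10, adjusted p = 0.824), and in the 4 controls alone it was higher in PC3 (0.16, adjusted p = 0.00471).

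The rest of the machinery lay lower in PC3 as well. Of 64 further mitotic genes, in lists of CDK1 control, checkpoint and cohesion, kinetochore, condensin, spindle and cytokinesis genes, 52 were lower and 2 higher (38.4% of all genes tested were lower), with a median log2 fold change of -0.79. SPAG5, a spindle and kinetochore protein, MYBL2, the B-Myb transcription factor that works with MuvB, and CENPK, a kinetochore subunit, had log2 fold changes of -3.19, -2.31 and -2.23. The genes higher in PC3, within the rule for named genes, were ZWINT, a kinetochore protein, at 0.97 and CHMP4B, an ESCRT-III subunit of abscission, at 0.99. Of 30 genes of G1 and S phase, 27 were lower and 2 higher in PC3, with a median of -1.36. Of 15 cell cycle inhibitors and pocket proteins, 9 were lower and 4 higher. BTG2, an antiproliferative gene, had the largest difference of that list, at -3.94 ± 0.22. CDKN2B, which codes for the CDK4 and CDK6 inhibitor p15, was higher in PC3 with a log2 fold change of 3.80 ± 0.14, and CDKN1A, which codes for p21, was lower at -1.39 ± 0.12.

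Within PC3, circ0003553 came with higher RNA of some members and lower RNA of others. Against both PC3 controls, 9 of 34 members rose and 5 fell, where 14.3% of all genes tested rose and 14.5% fell. The median log2 fold change of the members was 0.04, against -0.03 over all genes. With 1 library per circRNA and line, the spread in this and the following comparisons was taken from the controls (edgeR, 6 groups of line and treatment, 2 residual degrees of freedom). BUB1 rose most, to 75.4 CPM with circ0003553 against 47.1 and 45.9 CPM in the controls (log2 fold change 0.70 ± 0.07, adjusted p = 1.33e-08), and it was the only member that changed by 1.5-fold or more. NDC80 rose to 67.1 CPM against 48.6 and 48.4 CPM in the controls (0.47 ± 0.07, adjusted p = 7.22e-06), and KIF11 to 101 CPM against 72.3 and 74.4 CPM (0.47 ± 0.06, adjusted p = 3.82e-06). PTTG1, KIF2C, AURKA, PLK1, TPX2 and CCNB1 rose by less, with log2 fold changes of 0.18 for CCNB1 to 0.39 for PTTG1. CENPE fell to 60.6 CPM with circ0003553 against 83.8 and 79.1 CPM in the controls (-0.43 ± 0.07, adjusted p = 0.000101). BIRC5 fell to 118 CPM against 145 and 151 CPM in the controls (-0.33 ± 0.06, adjusted p = 0.00024), and AURKB to 16.1 CPM against 18.8 and 21.5 CPM (-0.32 ± 0.10, adjusted p = 0.0165). UBE2C and BUB1B fell with log2 fold changes of -0.25 and -0.22. All 14 had the same sign against the control of their own arm. That control is also in the test, so the agreement is no separate support. Under each of 12 alternative settings only BUB1, KIF11, KIF2C, NDC80 and BIRC5 kept their calls. With DESeq2 8 members passed, without the filter 9, with limma on RPKM 8 and with both circRNA libraries of PC3 as 1 group 6. The shares of all genes given above are those of the fit as reported, not of these alternatives.

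With circ0004592, 8 members rose and 3 fell in PC3, where 12.3% of all genes rose and 13.5% fell, and the median of the members was 0.01 against -0.03 over all genes. BUB1 rose to 73.1 CPM with circ0004592 (0.65 ± 0.07, adjusted p = 4.74e-08) and NDC80 to 64.2 CPM (0.41 ± 0.07, adjusted p = 5.84e-05), against the same controls. TTK rose to 15.9 CPM with circ0004592 against 12.9 and 11.5 CPM in the controls (0.38 ± 0.11, adjusted p = 0.015). CCNB2, KIF11, KIF2C, CCNB1 and TPX2 rose with log2 fold changes of 0.16 for TPX2 to 0.25 for CCNB2. AURKB fell to 15.3 CPM with circ0004592 (-0.40 ± 0.10, adjusted p = 0.00406), BIRC5 to 124 CPM (-0.25 ± 0.06, adjusted p = 0.00338) and DLGAP5 to 113 CPM against 129 and 128 CPM in the controls (-0.18 ± 0.06, adjusted p = 0.0333). BUB1, KIF2C, NDC80 and BIRC5 kept their calls under each of 12 alternatives. Counts of members under single alternatives stand here without the share of all genes under the same setting. With DESeq2 6 members passed, with limma on RPKM 5 and with both circRNA libraries as 1 group 6.

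**Figure D3:**
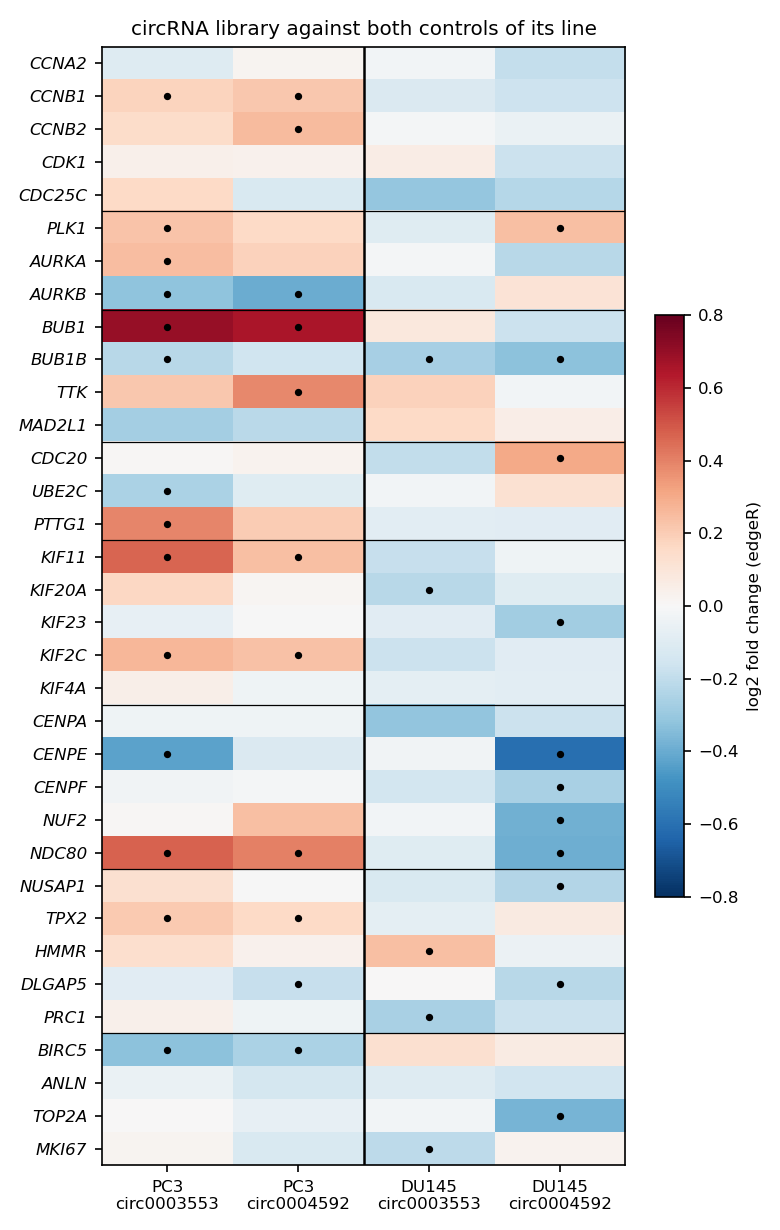
Log2 fold change (edgeR) of each member with a circRNA against both controls of its line, in PC3 (left pair of columns) and DU145 (right pair), members grouped by role between the horizontal lines. Black dots mark an adjusted p under 0.05, which 14 and 11 members reached in PC3 and 5 and 11 in DU145, and BUB1 in PC3 has the deepest red, at 0.70 and 0.65.

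Both comparisons in PC3 use the same 2 controls, so their folds are not independent. KIF11 had log2 fold changes of 0.47 with circ0003553 and 0.24 with circ0004592, KIF2C 0.27 and 0.23, and CENPE, which did not pass with circ0004592, -0.43 and -0.12. Set directly against each other in PC3, circ0003553 and circ0004592 differed in 0 members, where 0.112% of all genes passed. At an unadjusted p under 0.05, 4 of 34 members and 1496 of all 17877 genes differed in edgeR. With DESeq2 0 of the 8 members given an adjusted p passed. The smallest adjusted p was 0.238, for CENPE, at 60.6 CPM with circ0003553 and 75.2 CPM with circ0004592, and CENPE passed when either PC3 control was left out.

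Interferon-stimulated genes rose with the circRNAs in both lines. In PC3 all 16 genes of this list rose with each circRNA, with a median log2 fold change of 6.09 with circ0003553 and 5.99 with circ0004592. They summed to 18219 and 17662 CPM with circ0003553 and circ0004592 in PC3, against 398 and 402 CPM in the PC3 controls. In DU145, 10 of 16 rose with circ0003553 (median 0.63) and 8 of 16 with circ0004592 (median 0.50), and 0 fell with either, where 4.62% and 5.93% of all genes rose (edgeR). Their sum in DU145 was 382 and 392 CPM with the circRNAs and 341 and 339 CPM in the controls. Their part in the changes of the mitotic genes in either line was not tested.

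Other cell cycle genes in PC3 changed in both directions as well. Of the 64 further mitotic genes, 17 rose and 8 fell with circ0003553, and 10 rose and 7 fell with circ0004592. Over all genes tested 14.3% rose and 14.5% fell with circ0003553, and 12.3% rose and 13.5% fell with circ0004592. In either direction, 39.1% of the 64 genes passed with circ0003553, against 28.8% of all genes. With circ0004592 the share was near that of all genes, at 26.6% against 25.7%. MASTL, the Greatwall kinase that restrains the phosphatase opposing CDK1, had 45.6 CPM with circ0003553 and 42.5 CPM with circ0004592 against 13.4 and 13.7 CPM in the controls, the largest rise of that list (log2 fold change 1.75 ± 0.10, adjusted p = 5.08e-13 with circ0003553 and 1.65 ± 0.10, adjusted p = 1.91e-12 with circ0004592). CKAP2, a spindle microtubule protein, rose by 0.88 and 0.98 and CENPH, a kinetochore subunit, by 0.83 and 0.90. CEP55, which acts in abscission, had log2 fold changes of -0.41 and -0.44, and CCNF, which codes for cyclin F, -0.64 with circ0003553. Of the 30 genes of G1 and S phase, 10 rose and 1 fell with circ0003553, and 6 rose and 2 fell with circ0004592, to be read against the same shares. CCND1, which codes for cyclin D1, rose by 0.72 with circ0003553 and 0.63 with circ0004592. Of the inhibitors, CDKN1A rose by 0.65 and 0.69, and CDKN2B had -0.99 and -0.86.

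In DU145, 5 members passed with circ0003553. HMMR rose and BUB1B, PRC1, KIF20A and MKI67 fell, where 4.62% of all genes rose and 6.27% fell. The median of the members was -0.09, against 0 over all genes. HMMR had 143 CPM with circ0003553 against 119 and 123 CPM in the controls (log2 fold change 0.24 ± 0.06, adjusted p = 0.00906). BUB1B had 298 CPM against 349 and 369 CPM in the controls (-0.27 ± 0.06, adjusted p = 0.00403), and PRC1 473 CPM against 551 and 583 CPM (-0.26 ± 0.06, adjusted p = 0.00398). KIF20A had 142 CPM against 158 and 174 CPM in the controls (-0.22 ± 0.07, adjusted p = 0.0336), and MKI67 1595 CPM against 1848 and 1843 CPM (-0.21 ± 0.05, adjusted p = 0.00734). None of these calls held under every alternative. For the counts under alternatives that follow, the share of all genes under the same setting is not given. By edgeR with both circRNA libraries as 1 group, and by limma on RPKM, 0 members passed, with 8 at an unadjusted p under 0.05 in each, and DESeq2 gave 3. Without the DU145 control of the circ0004592 arm 2 passed, and without either PC3 control, whose spread enters the fit, 9.

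With circ0004592 in DU145, 2 members rose and 9 fell, where 5.93% of all genes rose and 4.51% fell. The median of the members was -0.16, against 0 over all genes. CENPE fell most, to 96.1 CPM with circ0004592 against 138 and 154 CPM in the controls (log2 fold change -0.60 ± 0.07, adjusted p = 7.87e-06). Of the NDC80 complex, NDC80 fell to 137 CPM against 175 and 185 CPM in the controls (-0.39 ± 0.06, adjusted p = 0.000232) and NUF2 to 43.0 CPM against 53.8 and 58.6 CPM (-0.38 ± 0.09, adjusted p = 0.00501). TOP2A fell to 644 CPM against 833 and 834 CPM in the controls (-0.37 ± 0.05, adjusted p = 8.37e-05), and BUB1B to 286 CPM against 349 and 369 CPM (-0.33 ± 0.06, adjusted p = 0.00082). KIF23, CENPF, NUSAP1 and DLGAP5 fell with log2 fold changes of -0.28, -0.26, -0.23 and -0.22. CDC20 rose to 78.7 CPM with circ0004592 against 63.6 and 64.1 CPM in the controls (0.30 ± 0.07, adjusted p = 0.00995), and PLK1 to 87.2 CPM against 73.3 and 74.2 CPM (0.24 ± 0.07, adjusted p = 0.0388). Again 0 members passed with both circRNA libraries as 1 group (8 at an unadjusted p under 0.05, edgeR) and with limma on RPKM (19 unadjusted), while DESeq2 gave 8. Without the DU145 control of the circ0004592 arm 4 passed. The comparisons of both circRNAs in DU145 share their controls. Counts under these alternatives, adjusted or not, stand without the share of all genes under the same setting.

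**Figure D4:**
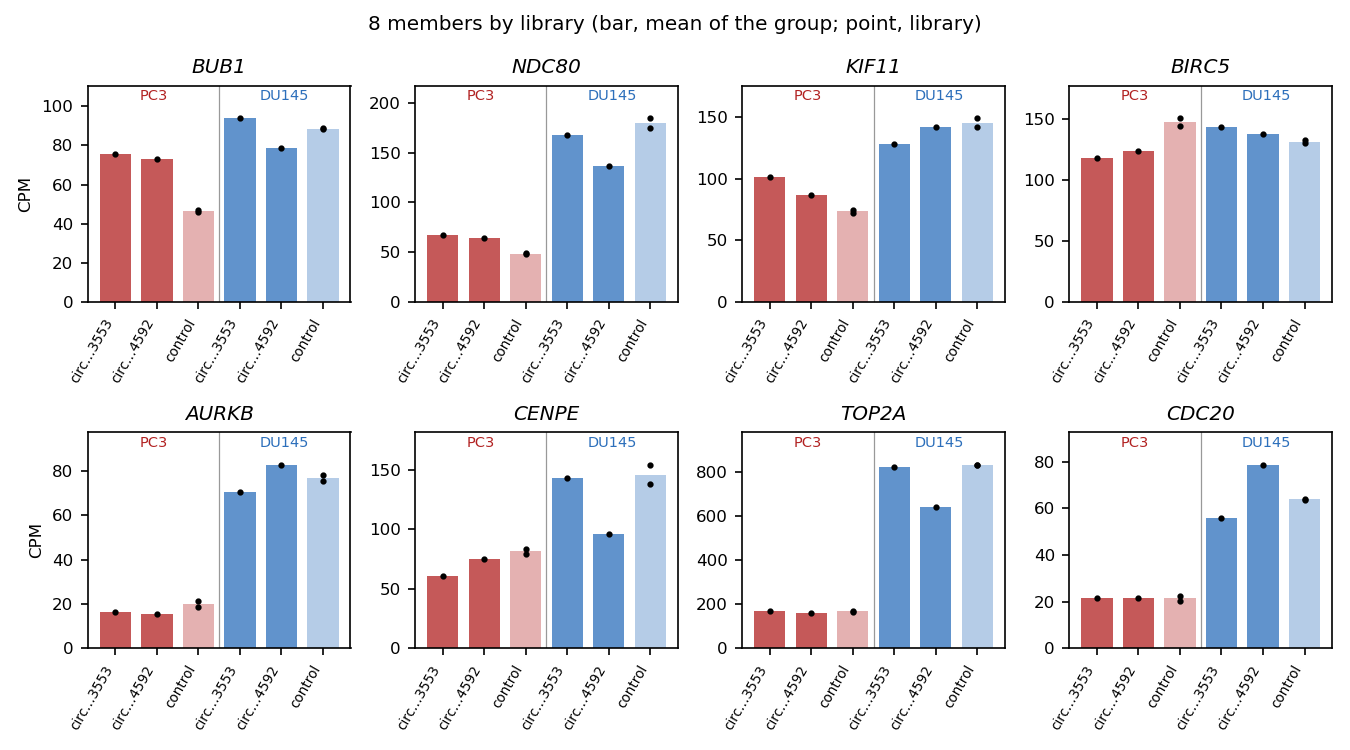
CPM of 8 members by group: with circ0003553, with circ0004592 and with the control plasmid, in PC3 (red) and DU145 (blue); bars are group means from 0, points are libraries, and each circRNA bar is 1 library. BUB1, NDC80 and KIF11 are above both controls with each circRNA in PC3, and CENPE and TOP2A are lowest in DU145 with circ0004592.

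Set directly against each other in DU145, circ0003553 and circ0004592 differed in 10 members, where 13.9% of all genes passed. CENPE had 143 CPM with circ0003553 and 96.1 CPM with circ0004592 (log2 fold change 0.57 ± 0.08, adjusted p = 6.23e-05), and CDC20 had 55.8 CPM with circ0003553 and 78.7 CPM with circ0004592 (-0.50 ± 0.09, adjusted p = 0.000447). NUF2, TOP2A, NDC80, HMMR, BUB1 and DLGAP5 were also higher with circ0003553, at 0.22 for DLGAP5 to 0.36 for NUF2. PLK1 and MKI67 were lower, at -0.34 and -0.24. Shares of all genes are not given for the alternatives that follow. With DESeq2 6 members passed. With limma on RPKM 0 passed, with 14 at an unadjusted p under 0.05.

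Of the 64 further mitotic genes, 2 rose and 8 fell with circ0003553 in DU145, and 6 rose and 10 fell with circ0004592. Over all genes tested 4.62% rose and 6.27% fell with circ0003553, and 5.93% rose and 4.51% fell with circ0004592. SPC24, a subunit of the NDC80 complex, had the largest change with circ0003553 (-0.59), followed by MAD1L1 of the checkpoint (-0.44). Of those that passed with circ0004592, the largest changes were those of CENPK (-0.35) and NCAPG, a condensin subunit (-0.33). Of the 30 genes of G1 and S phase, 1 rose and 3 fell with circ0003553, and 6 rose and 0 fell with circ0004592, against the same shares of all genes.

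The effect of a circRNA differed between PC3 and DU145 in 16 members for circ0003553 and in 13 for circ0004592. For circ0003553 the log2 fold change was higher in PC3 than in DU145 in 13 members and lower in 3, where 12.1% of all genes were higher and 10.5% lower (interaction of line and circRNA, edgeR). For circ0004592 it was higher in PC3 in 11 members and lower in 2, where 9.79% of all genes were higher and 10.5% lower. The interactions of the 2 circRNAs share their controls. Against the control of its own arm, the log2 fold of BUB1 was 0.68 and 0.67 in PC3 with circ0003553 and circ0004592, against 0.09 and -0.17 in DU145. The differences between the lines given in this paragraph come from the test, which uses both controls of each line. The differences were 0.61 ± 0.09, adjusted p = 2.43e-05 for circ0003553 and 0.82 ± 0.09, adjusted p = 4.88e-07 for circ0004592. That of NDC80 was 0.47 and 0.41 in PC3 and -0.06 and -0.43 in DU145, with differences of 0.56 ± 0.09 and 0.80 ± 0.09. That of BIRC5 was -0.30 and -0.28 in PC3 and 0.14 and 0.05 in DU145, with differences of -0.46 ± 0.09 and -0.32 ± 0.09. For CENPE the difference between the lines was -0.40 ± 0.10 for circ0003553 and 0.49 ± 0.10 for circ0004592. Shares of all genes are not given for the alternatives that follow. With DESeq2 9 and 7 members passed for circ0003553 and circ0004592, and 5 for each with limma on RPKM and with both circRNA libraries as 1 group.

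**Figure D5:**
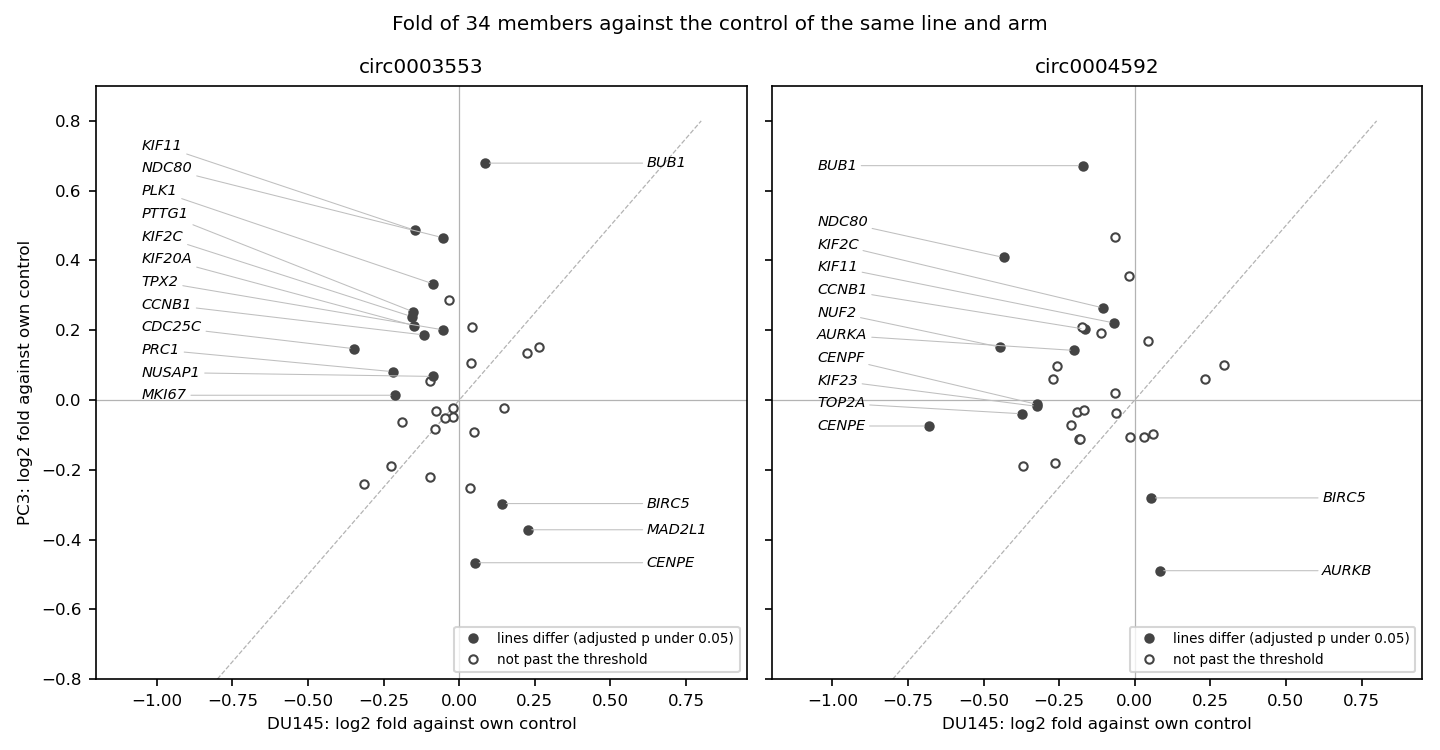
Log2 fold of each member with a circRNA against the control of the same line and arm, in PC3 (y axis) and DU145 (x axis), for circ0003553 and circ0004592; each point is 1 gene from 1 library pair per line and has no error bar, and the dashed line marks equal folds. Filled, named points differ between the lines in the test against both controls of each line (16 for circ0003553, 13 for circ0004592). Most of them lie above the dashed line.

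Over both lines together, 0 members passed for either circRNA. With lines and arms as 4 blocks, each holding 1 circRNA library and its control, 0 of 34 members passed for circ0003553 and 0 for circ0004592, where 0% of all genes passed for each. At an unadjusted p under 0.05, edgeR gave 0 members for each circRNA, and DESeq2 called 0 members for each, with 0 and 1 at an unadjusted p under 0.05. The smallest adjusted p of a member was 0.973 for circ0003553 and 0.986 for circ0004592, in fits with 2 residual degrees of freedom. In these fits the residual spread is the difference in response between the lines. The test therefore cannot decide on a shared effect where the lines respond differently. Of the 16 interferon-stimulated genes 0 passed too, with median log2 fold changes of 3.43 for circ0003553 and 3.55 for circ0004592.

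Counting could touch some of these values. Exons of 12 members overlap a gene on the opposite strand, and the strand setting of the counting is not given in the sources used here. CCNA2 shares 254 of 2798 bases with EXOSC9, which had 1492 to 4847 counts against 684 to 2876 counts of CCNA2. CDC25C shares 293 of 3047 bases with FAM53C, which had 618 to 1816 counts against 293 to 994 counts of CDC25C. KIF20A shares 132 of 3958 bases with BRD8, which had 2869 to 7272 counts against 900 to 7275 counts of KIF20A. The longest stretch, 553 of 4760 bases of PLK1, lies in a partner with 53 to 233 counts. BUB1B shares 457 bases on the same strand with the readthrough gene BUB1B-PAK6. The related copies CDC20P1, UBE2CP1, UBE2CP4, PTTG2 and PTTG3P had at most 24 counts.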

How the data were processed

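Total RNA of 8 libraries of PC3 and DU145 was depleted of ribosomal RNA and sequenced from stranded libraries with molecular identifiers, per the labels' protocols. Reads were trimmed with Trimmomatic 0.36, counted with featureCounts of Subread 1.5.1 on hg38 and handled with edgeR 3.12.1, per the submitters' processing notes. Neither aligner nor annotation release, and neither strandedness in counting nor the handling of identifiers, is given in the sources used here. The deposited tables hold raw read counts per gene, with a separate file for each arm, and RPKM per gene, which the authors made from the counts; recomputed from counts, gene length and column totals, RPKM differed by at most a relative 2.3e-13. Of 36779 genes, 31268 stood in both tables, and the 5511 found in a single one had at most 14 counts and were set to 0 in the other. Between 64.85% and 66.08% of counts of 1 to 20 were even, a share that counting both reads of a pair could give; whether pairs or reads were counted is not given.

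Genes with at least 1 CPM (of total counts) in at least 2 libraries were tested (17877, with all 34 members), by edgeR 4.0.16 (quasi-likelihood, TMM scaling; R 4.3.3); an SE is the absolute log2 fold change divided by the square root of F. The lines were compared with 4 blocks of plasmid and arm (3 residual degrees of freedom). Comparisons within a line, between the circRNAs and between the lines' responses used 6 groups of line and treatment, and those over both lines 4 blocks of line and arm (2 residual degrees of freedom each). Own-control folds had a prior count of 2 and were not tested. The labels tie each control library to a circRNA arm, and the pairing in the blocks rests on that. Alternatives were DESeq2 size factors, DESeq2 1.42.0, no filter, limma 3.58.1 on log2(RPKM + 0.1), each library left out, controls only, no block, and 4 groups (both circRNA libraries of a line against its controls).

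The members and the lists were chosen with earlier results of these data known. Named with values in all libraries were members past the threshold, up to 10 per comparison by absolute log2 fold change, and the pair of largest fold in each role; other lists are named up to 4 genes per comparison.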

Additional observations from a re-analysis of the deposited data

Results flagged for a closer look

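The response to a circRNA differed between PC3 and DU145 in these members by the interaction term of edgeR (adjusted p under 0.05 over all 17877 genes); values are the log2 fold change in PC3 minus that in DU145, each from 1 circRNA library per line. For circ0003553 the fold was higher in PC3 by 0.29 for CCNB1, 0.47 for CDC25C, 0.32 for PLK1, 0.61 for BUB1, 0.48 for PTTG1, 0.65 for KIF11, 0.39 for KIF20A, 0.44 for KIF2C, 0.56 for NDC80, 0.25 for NUSAP1, 0.29 for TPX2, 0.31 for PRC1 and 0.24 for MKI67. For the same circRNA the difference was -0.43 for MAD2L1, -0.40 for CENPE and -0.46 for BIRC5. For circ0004592 the fold was higher in PC3 by 0.38 for CCNB1, 0.40 for AURKA, 0.82 for BUB1, 0.27 for KIF11, 0.27 for KIF23, 0.32 for KIF2C, 0.49 for CENPE, 0.24 for CENPF, 0.63 for NUF2, 0.80 for NDC80 and 0.31 for TOP2A. The difference was -0.51 for AURKB and -0.32 for BIRC5 with circ0004592. BUB1 and NDC80 kept this call for both circRNAs under each of 11 alternatives, and KIF11, KIF2C and BIRC5 kept it for circ0003553. Summed interferon-stimulated genes were 18219 and 17662 CPM in the PC3 libraries with circ0003553 and circ0004592 and 398 and 402 CPM in the PC3 controls; 10 of 16 rose with circ0003553 and 8 of 16 with circ0004592 in DU145, and their part in these differences was not tested.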

How the results depend on the processing

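The lower level of the members in PC3 held in 30 or 31 of 34 members under the settings tried, with DLGAP5 the call that was lost, except that in the controls alone 32 were lower and BIRC5 turned to 0.16 and was higher. Within the lines the number of called members moved by more than 1.5 times under some settings. For circ0003553 in PC3 (14 as reported) it was 8 with DESeq2, 9 without the filter, 8 with limma on RPKM and 6 with 4 groups; for circ0004592 in PC3 (11) it was 6, 5 and 6 with DESeq2, limma and 4 groups. For circ0003553 in DU145 (5) it was 3 with DESeq2, 0 with limma and 0 with 4 groups, and 2 to 9 with 1 library left out. For circ0004592 in DU145 (11) it was 0 with limma and 0 with 4 groups, and 4 to 14 with 1 library left out. For the interaction with circ0003553 (16) it was 9 with DESeq2, 5 with limma and 5 with 4 groups, where CENPE reversed to 0.023; for circ0004592 (13) it was 7, 5 and 5. Between the circRNAs it was 0 to 1 in PC3 with 1 library left out (0 as reported), and in DU145 (10) 6 with DESeq2 and 0 with limma. The cause was not tested. The setting of 4 groups averages both circRNA libraries, and leaving out a control leaves 1 control in that line. Counts under the alternatives, adjusted or not, stand without the share of all genes under the same setting. They do not show whether members passed more often than other genes. Without the replicate block 31 members differed between the lines and 0 over both lines for each circRNA, so the block changed no count of calls. Of the values of single members under the alternatives, 4157 kept their side of the threshold, 218 lost a call, 43 gained one and 2 turned round. Many of the 4157 belong to members without a call to lose, as in the comparisons over both lines. Between the lines 30 of 31 called members kept their call under every alternative. With circ0003553 and circ0004592 it was 5 of 14 and 4 of 11 in PC3, and 0 of 5 and 0 of 11 in DU145. With 1 library per circRNA and line, the spread behind each within-line call comes from 2 pairs of controls.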
